A study of Mus musculus with 2 samples.

Results

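Dlx1, Dlx2, Dlx5 and Dlx6 encode homeodomain transcription factors, and Dlx6os1 (also known as Evf2) is a long noncoding RNA transcribed from the Dlx5 and Dlx6 locus. These 5 genes were picked by symbol from the 32285 genes of the count tables, and their unique molecular identifiers (UMIs, one per captured transcript) were counted in single cells labelled as cerebral cortex of wild-type mouse embryos at embryonic day (E) 16.5. The cells came from 2 libraries (WT replicate 1 and WT replicate 2) whose titles carry the line name EomesDot, and no other genotype, treatment or age entered. Whether a library held 1 embryo or several was not stated, so the spread between the libraries may be partly technical. Cells with 1500 to 60000 UMIs and under 10% mitochondrial UMIs were kept, which left 5966 and 10247 cells.

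The Dlx factors are the shared transcriptional signature of GABAergic neurons born in the ganglionic eminences of the ventral forebrain. They lie in the genome as convergently transcribed pairs, Dlx1 with Dlx2 and Dlx5 with Dlx6. Dlx1 and Dlx2 are known from dividing progenitors of the ventral forebrain, where they are needed for interneurons to differentiate and migrate, and Dlx5 and Dlx6 are known as genes that act downstream of them. Dlx6os1 is known to regulate its neighbours Dlx5 and Dlx6. The medial and caudal ganglionic eminences (MGE, CGE) give rise to cortical interneurons (cINs), and the lateral ganglionic eminence (LGE) gives rise to striatal projection neurons and to further interneurons.

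In the GRCm38.p6 (mm10) assembly, Dlx1 spans 71528113 to 71533981 and Dlx2 spans 71543408 to 71546754 on chromosome 2, with 9426 bases between them. On chromosome 6, Dlx5 spans 6877801 to 6882068 and Dlx6 spans 6863334 to 6867970, with 9830 bases between them. Dlx6os1 spans 6820543 to 6871627, so that the whole of Dlx6 lies within it, and the antisense gene Dlx1as shares 3344 bases with Dlx1. Whether strand was used in counting was not stated, so that reads of Dlx6 and Dlx6os1, and of Dlx1 and Dlx1as, cannot be told apart with certainty.

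Promoter windows of 300 bases (250 before and 50 after the start site, RefSeq, GRCm38.p6) were held for 3 of the 5 genes. They are shown because the windows of Dlx1 and Dlx2, whose levels varied most among GABAergic classes, differ in base composition from those of Dlx6os1. Capitals mark the letters TAATT or their reverse complement AATTA, the core that many homeodomain proteins bind, searched on both strands with overlapping matches merged.
Dlx1 (chr2:71529195-71529494, plus strand): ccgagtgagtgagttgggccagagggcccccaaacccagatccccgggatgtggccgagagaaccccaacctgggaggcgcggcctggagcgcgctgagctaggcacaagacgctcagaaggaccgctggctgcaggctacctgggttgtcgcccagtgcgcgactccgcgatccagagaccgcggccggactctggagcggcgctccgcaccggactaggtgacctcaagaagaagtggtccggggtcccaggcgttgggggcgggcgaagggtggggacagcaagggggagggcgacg
Dlx2 (chr2:71546705-71547004, minus strand): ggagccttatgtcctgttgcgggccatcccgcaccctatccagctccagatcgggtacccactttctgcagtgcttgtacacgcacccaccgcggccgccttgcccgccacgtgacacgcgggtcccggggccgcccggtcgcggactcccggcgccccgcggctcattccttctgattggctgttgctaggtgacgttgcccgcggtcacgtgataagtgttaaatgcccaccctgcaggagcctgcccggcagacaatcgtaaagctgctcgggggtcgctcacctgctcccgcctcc
Dlx6os1, first start site (chr6:6869484-6869783, minus strand): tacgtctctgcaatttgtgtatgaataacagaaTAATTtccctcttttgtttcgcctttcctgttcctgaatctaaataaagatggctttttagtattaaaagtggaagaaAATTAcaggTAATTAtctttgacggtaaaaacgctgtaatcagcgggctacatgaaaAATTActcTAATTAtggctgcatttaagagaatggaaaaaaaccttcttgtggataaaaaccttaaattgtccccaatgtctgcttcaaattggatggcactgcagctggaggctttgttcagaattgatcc
Dlx6os1, second start site (chr6:6861634-6861933, minus strand): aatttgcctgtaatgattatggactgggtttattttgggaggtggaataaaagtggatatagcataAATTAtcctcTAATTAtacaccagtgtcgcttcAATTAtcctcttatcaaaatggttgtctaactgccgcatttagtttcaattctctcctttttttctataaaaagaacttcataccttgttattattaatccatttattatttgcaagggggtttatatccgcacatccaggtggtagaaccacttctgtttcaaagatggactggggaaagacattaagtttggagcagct
The Dlx1 and Dlx2 windows were 69.3% and 66.3% G and C and held no match. The Dlx6os1 windows were 35.7% and 35.3% G and C and held matches in 5 and 3 separate places. Over all 32851 promoter windows the median was 52.7% G and C, and 27.0% held at least 1 match. Matches in 5 or more places were held by 0.167%, and in 3 or more by 2.23%. The windows of Dlx1 and Dlx6os1 lay wholly inside the gene spans given above, so their start sites are not at the outer ends of these genes.

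The libraries held 46398156 and 64324236 UMIs over 9049 and 13556 barcodes, and the kept cells had medians of 5706 and 4938 UMIs. The libraries shared 40 barcodes, of which 21 were among the kept cells. Predicted doublets (432 and 1111 cells) were removed. In a first clustering of all cells, clusters in which at least 50% of cells had a UMI of Gad1 or Gad2, the genes of the GABA-synthesizing enzymes, held 2249 and 3554 cells, which was 40.6% and 38.9% of each library. These cells were clustered again, and all of them are counted as GABAergic here. Clusters were named from marker lists that contain no Dlx gene, and every Dlx gene was left out of the clustering. The named GABAergic classes were cycling GABAergic progenitor-like cells (814), MGE interneuron-like (1577), CGE interneuron-like (544) and LGE-type Meis2 interneuron-like cells (526), and direct-pathway (714), indirect-pathway (619) and untyped (274) striatal projection neuron-like cells. Dividing GABAergic progenitors and striatal projection neurons belong to the ventral forebrain, although the labels name only the cerebral cortex.

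The 5 genes were almost entirely restricted to GABAergic clusters. Of their 18742 and 26108 UMIs left after doublet removal, 96.6% in replicate 1 and 96.2% in replicate 2 lay in these clusters. The lowest share of any 1 gene was 93.6%, for Dlx1 and Dlx2 in replicate 2, and the highest was 97.7%, for Dlx6os1 in replicate 1. Before doublet removal, the kept cells held 3548 and 5380 UMIs of Dlx1, 1958 and 2959 of Dlx2, 1198 and 1845 of Dlx5, 757 and 1073 of Dlx6, and 13458 and 19505 of Dlx6os1. The other Dlx features of the table were Dlx1as with 2299 and 3681 UMIs, Dlx3 with 1 UMI in all, and Dlx4 and Dlx4os with 0. Levels are given as CPM, the UMIs of a gene scaled to a common total of all UMIs, summed per class and library. Because the assay reads 3′ ends, they are compared between classes within a gene and not between genes.

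The first question was how far the genes stand above the level in cells that should not use them. In postmitotic GABAergic classes (each weighted equally on the log scale) Dlx6os1 was at 937 and 835 CPM in replicates 1 and 2, against 11.9 and 7.72 CPM in upper-layer and deep-layer neuron-like cells. Dlx5 was at 94.8 and 99.4 CPM against 1.47 and 1.56 CPM, and Dlx6 at 68.3 and 57.7 CPM against 1.62 and 0.815 CPM. Dlx1 was at 138 and 118 CPM against 2.78 and 4.87 CPM, and Dlx2 at 69.0 and 65.3 CPM against 2.56 and 3.68 CPM. The groups of library values did not overlap for any of the 5. In edgeR's quasi-likelihood test all 5 were higher in the GABAergic classes, where 14.9% of the 15634 genes tested were called higher and 20.6% lower. GABAergic clusters were chosen by Gad1 and Gad2, so genes that go with these were bound to be higher there. The log2 fold change was 6.41 ± 0.18 (SE) for Dlx6os1, with an adjusted p of 9.46e-32 (edgeR), and 4.34 ± 0.21 for Dlx2, the lowest of the 5, with an adjusted p of 2.89e-22 (edgeR). For Dlx1 it was 4.95 ± 0.21, and the log2 ratio within a library was 5.63 in replicate 1 and 4.601 in replicate 2. For Dlx6 it was 5.50 ± 0.20, with log2 ratios of 5.40 and 6.14 in the 2 libraries. With predicted doublets kept, the log2 fold changes fell to 3.23 for Dlx1, 3.35 for Dlx2, 4.68 for Dlx5, 4.69 for Dlx6 and 4.54 for Dlx6os1, and all 5 stayed called.

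**Figure D1:**
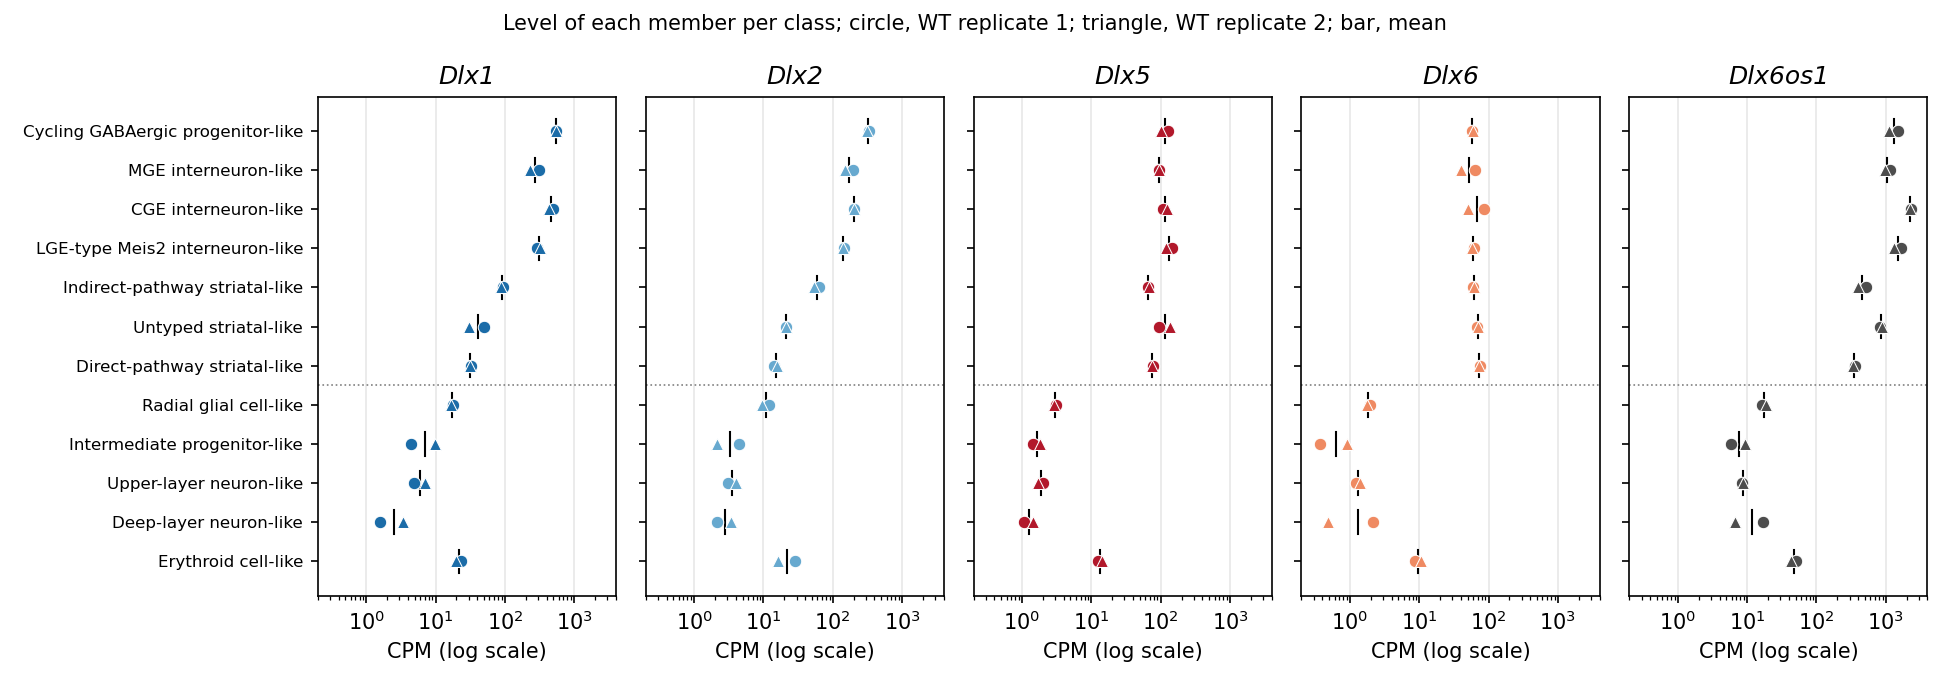
Level of each gene in CPM (log axis) in 12 classes, 7 GABAergic above the dotted line and 5 others below it. Circles and triangles are the 2 WT libraries and bars their mean. Dlx1 and Dlx2 span a wide range among GABAergic classes, while Dlx6 stays between 52.2 and 73.0 CPM on average.

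UMIs of the 5 genes were also found in cells that should not use them. In erythroid-like cells Dlx1 was at 22.9 and 20.03 CPM, Dlx2 at 28.2 and 16.2, Dlx5 at 12.4 and 14.3, Dlx6 at 8.83 and 10.5 and Dlx6os1 at 51.2 and 42.9 CPM. Radial glial cell-like cells, the progenitors of the dorsal forebrain, had means of 17.1 CPM for Dlx1 and 10.7 CPM for Dlx2, below the erythroid-like level. The upper-layer neuron-like cells, the most numerous class, had 5.92 ± 1.57 CPM of Dlx1 and 3.54 ± 0.68 CPM of Dlx2 (mean ± SD, n = 2 libraries). The Dlx2 means of direct-pathway and untyped striatal cells, 15.1 and 21.3 CPM, were not above the erythroid-like mean of 22.2 CPM. That mean was carried by 1 of the 2 erythroid-like clusters, of 368 cells, with 36.4 CPM of Dlx2 and 31.5 CPM of Dlx1, while the other, of 133 cells, had 1.98 and 6.68 CPM. The means of direct-pathway and untyped striatal cells lay above those of upper-layer, deep-layer, radial glial, endothelial, pericyte, fibroblast and microglia-like cells for both genes, of which the highest were 11.7 CPM for Dlx2 and 27.1 CPM for Dlx1, both in microglia-like cells with 5 and 10 UMIs. The microglia-like libraries stood apart, with 49.3 and 4.85 CPM of Dlx1 and 18.5 and 4.85 CPM of Dlx2, so that in replicate 1 they lay above direct-pathway cells for both genes.

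Across the 7 GABAergic classes the genes differed in how much their level varied. The highest class mean was 17.2 times the lowest for Dlx1, 21.2 times for Dlx2, 6.50 times for Dlx6os1, 1.98 times for Dlx5 and 1.40 times for Dlx6. No background level was subtracted, and the part of free RNA in the lowest values was not tested. Dlx1 and Dlx2 were highest in cycling progenitor-like cells and lowest in direct-pathway cells. Dlx6os1 was highest in CGE interneuron-like cells and lowest in direct-pathway cells.

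In order of Dlx1 level, cycling progenitor-like cells had 546 ± 6.98 CPM (mean ± SD, n = 2 libraries), CGE interneuron-like cells 465 ± 36.95 CPM, LGE-type cells 307 ± 22.5 CPM and MGE interneuron-like cells 270 ± 54.6 CPM. The values of the LGE-type and MGE cells overlapped. Indirect-pathway cells followed with 90.5 ± 4.79 CPM, then untyped striatal cells with 40.5 ± 13.8 CPM and direct-pathway cells with 31.8 ± 1.09 CPM. The last pair overlapped, and the other neighbours did not.

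Dlx2 had a like order, with 320.1 ± 11.7 CPM in cycling progenitor-like cells and 200.1 ± 0.31 CPM in CGE cells. MGE cells had 172 ± 29.2 CPM and LGE-type cells 142 ± 3.39 CPM. Indirect-pathway cells had 58.8 ± 6.88 CPM, untyped striatal cells 21.3 ± 0.25 CPM and direct-pathway cells 15.1 ± 0.99 CPM. No neighbours in this order overlapped between libraries.

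Dlx5 was highest in LGE-type cells at 131 ± 17.8 CPM, followed by CGE cells at 117 ± 10.9 CPM, untyped striatal cells at 116 ± 29.3 CPM and cycling cells at 114 ± 19.9 CPM, and each of these overlapped with its neighbour. MGE cells had 95.2 ± 0.91 CPM, direct-pathway cells 76.0 ± 2.91 CPM and indirect-pathway cells 66.4 ± 2.31 CPM. The lower part of the Dlx5 order did not overlap between neighbours.

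Dlx6 was at 73.0 ± 1.83 CPM in direct-pathway cells and at 52.2 ± 16.3 CPM in MGE cells, with the other 5 classes between them. Direct-pathway cells did not overlap with untyped striatal cells, the next class, and all further neighbours overlapped. In CGE cells the libraries stood apart, with 84.9 CPM in replicate 1 and 50.9 CPM in replicate 2, as they did in MGE cells with 63.8 and 40.7 CPM. These values rest on 72 and 66 UMIs in CGE cells and 145 and 138 UMIs in MGE cells.

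Dlx6os1 was at 2270.1 ± 89.6 CPM in CGE cells, 1492 ± 253 CPM in LGE-type cells, 1322 ± 269 CPM in cycling cells and 1059 ± 104 CPM in MGE cells. LGE-type, cycling and MGE cells overlapped in turn. Untyped striatal cells had 857 ± 38.5 CPM, indirect-pathway cells 455 ± 83.8 CPM and direct-pathway cells 349 ± 15.1 CPM, with no overlap between neighbours.

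The shares of cells with a UMI did not always follow the order of the levels. A UMI of Dlx6os1 was found in 98.0% of CGE cells and 58.3% of direct-pathway cells (means of 2 libraries), against 4.87% of upper-layer neuron-like cells. After each cell was thinned to 1500 UMIs, these shares were 91.8%, 33.1% and 1.31%. Cycling cells, at 1322 CPM of Dlx6os1, had a UMI in 71.5% of cells (61.7% thinned), below MGE cells with 84.9% (66.97% thinned) and untyped striatal cells with 87.5% (65.6% thinned), which had lower levels. Median UMIs per cell were 3356 and 3535.5 in CGE cells, 3846.5 and 3705 in direct-pathway cells and 6952 and 5476 in upper-layer cells. Dlx1 had a UMI in 80.7% of cycling cells and 10.0% of direct-pathway cells, and in 49.5% and 4.52% after thinning, where the erythroid-like share was 3.85%. In CGE cells the Dlx1 share was 74.3%, and 49.7% after thinning, which was level with cycling cells. Dlx6 had a UMI in 28.3% of cycling cells and 25.3% of direct-pathway cells, and in 7.24% and 10.4% after thinning. At least 1 of the 5 genes had a UMI in 99.8% of CGE cells and in 89.7% of cycling cells. No cell was left out by thinning, because all kept cells had at least 1500 UMIs.

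The second question was how dividing GABAergic cells compare with their postmitotic relatives. Dlx1 was at 551 and 541 CPM in cycling progenitor-like cells and at 138 and 118 CPM in the 6 postmitotic classes. Dlx2 was at 328 and 312 CPM against 69.0 and 65.3 CPM. Both libraries put the cycling cells above the postmitotic mean, in which 3 of the 6 classes are the low striatal ones, and the nearest named class, CGE cells, had 491 and 439 CPM of Dlx1 and 200.3 and 199.9 CPM of Dlx2. An unnamed GABAergic cluster of 322 cells, outside this mean, was nearer, with 520 and 448 CPM of Dlx1 and with 329 and 278 CPM of Dlx2, which overlapped with the cycling cells. The log2 fold change was 2.07 ± 0.11 (SE) for Dlx1 with an adjusted p of 6.79e-21 (edgeR), and 2.21 ± 0.10 for Dlx2 with an adjusted p of 3.27e-23 (edgeR).

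Against the same mean of 6 classes, Dlx6os1 rose from 937 and 835 CPM in postmitotic classes to 1512 and 1131 CPM in cycling cells, a log2 fold change of 0.53 ± 0.13 with an adjusted p of 5.10e-04 (edgeR). DESeq2 did not call it (log2 fold change 0.45, adjusted p = 0.627). Cycling cells, with a mean of 1322 CPM, lay below CGE cells at 2270.1 CPM, and their values overlapped with those of LGE-type cells at 1492 CPM. Dlx5 was at 128 and 99.8 CPM in cycling cells and 94.8 and 99.4 CPM in postmitotic classes, and its log2 fold change of 0.16 (95% interval −0.06 to 0.39) did not pass. Dlx6 was at 58.2 and 59.2 CPM against 68.3 and 57.7 CPM, and its log2 fold change of −0.13 (95% interval −0.40 to 0.14) did not pass. Thus 3 of the 5 genes were called higher in cycling cells, where 26.5% of all genes tested were called higher and 22% lower. Cycling cells were also deeper, with medians of 5723 and 4874 UMIs against 3034 and 3247.5 in MGE cells, and the part of depth in these differences was not tested. Whether the fold changes of the Dlx1 and Dlx2 pair and the Dlx5 and Dlx6 pair differ from each other was not tested.

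**Figure D2:**
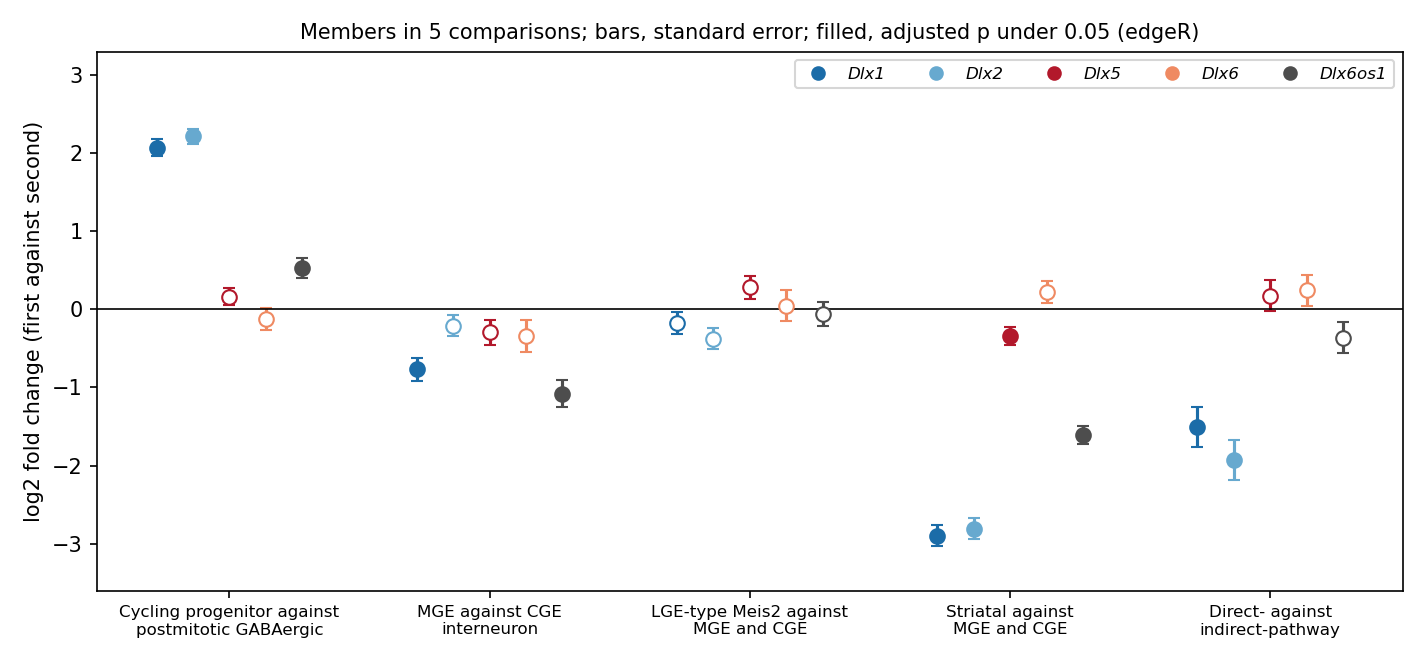
Log2 fold change of each gene (y axis) in 5 comparisons between GABAergic classes (x axis), with its standard error as a bar and a filled point where the adjusted p was under 0.05. Dlx1 and Dlx2 are called in the cycling, striatal and direct-pathway comparisons, while Dlx6 is called in none.

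Genes that act upstream of, or beside, the Dlx genes in the ventral forebrain were described from a list of 20. By edgeR, 12 of them rose and 7 fell in cycling against postmitotic cells, with a median log2 fold change of 0.93 against 0.04 over all genes tested. Of the 7 that fell, 3 were Gad1, Gad2 and Slc32a1, and without them 12 of 17 rose and 4 fell. Olig2, a factor of ventral progenitors and of the oligodendrocyte lineage, was at 48.6 CPM in cycling cells and at no more than 2.35 CPM in a postmitotic class. Gsx2, an LGE patterning factor, was at 31.6 CPM and at no more than 9.12 CPM. Vax1, a ventral homeodomain factor, and Hes5, a Notch target, were higher as well, at 23.0 CPM against at most 17.9 CPM and at 21.4 CPM against at most 6.53 CPM. Nrp2, a semaphorin receptor, fell by 3.25, and Maf, a factor of MGE interneurons, fell by 1.77 on the log2 scale. Npas1, a factor of CGE interneurons, was at 1.12 CPM in cycling cells and at up to 100.8 CPM in a postmitotic class.

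The third question was how the interneuron classes compare with each other. Dlx6os1 was at 1132 and 986 CPM in MGE cells and at 2333 and 2207 CPM in CGE cells. Dlx1 was at 308 and 231 CPM in MGE cells and at 491 and 439 CPM in CGE cells. The values of both genes were lower in MGE cells in each library and did not overlap. The log2 fold change of MGE against CGE was −1.08 ± 0.17 for Dlx6os1 with an adjusted p of 9.15e-06 (edgeR), and −0.77 ± 0.15 for Dlx1 with an adjusted p of 1.80e-04 (edgeR). These 2 of 5 genes were called lower in MGE cells, where 2.97% of all genes tested were called lower and 3.45% higher. DESeq2 called neither gene, with adjusted p-values of 0.688 for Dlx6os1 and 0.0777 for Dlx1 at nearly the same fold changes.

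The other 3 genes did not pass between MGE and CGE cells. Dlx2 was at 193 and 152 CPM against 200 and 199.9 CPM, a log2 fold change of −0.21 (95% interval −0.47 to 0.05). Dlx5 had −0.29 (−0.61 to 0.02) and Dlx6 had −0.34 (−0.74 to 0.06), with lower values in MGE cells in both libraries. Of the listed genes, 5 were called higher in MGE cells and 3 lower. Maf (702 against 86.2 CPM) was higher, as were Sp9 (238 against 125 CPM) and Zeb2 (1835 against 1323 CPM). Npas1 (37.3 against 100.8 CPM), Pou3f4 (42.1 against 86.1 CPM), a POU-domain factor, and Pak3 (239 against 458 CPM), a kinase gene repressed by Dlx factors in migrating interneurons, were lower. Sp9 and Zeb2 are known regulators of interneuron development.

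LGE-type Meis2 interneuron-like cells were compared with MGE and CGE cells together. Dlx5 was at 144 and 119 CPM in LGE-type cells and at 103 and 109 CPM in MGE and CGE cells. Dlx2 was at 144 and 139 CPM against 197 and 174 CPM. Neither gene's values overlapped between LGE-type cells and this log-scale mean of MGE and CGE cells, but neither gene passed the test. Against CGE cells alone, at 110 and 125 CPM of Dlx5, the Dlx5 values of LGE-type cells overlapped. The log2 fold change was 0.28 (95% interval −0.01 to 0.58) for Dlx5, with an adjusted p of 0.415 (edgeR), and −0.38 (−0.64 to −0.12) for Dlx2, with an adjusted p of 0.0895 (edgeR). For Dlx1, Dlx6 and Dlx6os1 it was −0.18, 0.05 and −0.06. None of the 5 was called by edgeR or DESeq2, 1 had an unadjusted p under 0.05, and 3.8% of all genes tested were called higher and 2.72% lower.

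Of the 20 listed genes, 1 was called higher and 7 lower in LGE-type cells. Six3, a factor of the striatal lineage, was at 63.6 CPM against 5.24 CPM. Maf was at 9.72 against 244 CPM, Npas1 at 2.60 against 61.0 CPM, and Cxcr4, a chemokine receptor of migrating interneurons, at 1.87 against 23.0 CPM. Zeb2 (848 against 1554 CPM) was lower too. Dlx1as was also lower, at 102 and 125 CPM against 360 and 333 CPM (log2 fold change −1.57 ± 0.16, adjusted p = 1.28e-10, edgeR), while Dlx1, which it overlaps, had 291 and 323 CPM against 389 and 319 CPM.

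The fourth question was how striatal projection neurons compare with interneurons. Dlx1 was at 53.5 and 43.6 CPM in the 3 striatal classes together and at 389 and 319 CPM in MGE and CGE cells. Dlx2 was at 26.9 and 26.4 CPM against 197 and 174 CPM, and Dlx6os1 at 535 and 491 CPM against 1626 and 1475 CPM. Untyped striatal cells alone came nearer, with 830 and 884 CPM of Dlx6os1 against 1132 and 986 CPM in MGE cells. As means of the classes, all 3 genes were lower in striatal cells by several fold in both libraries. The log2 fold change was −2.90 ± 0.13 for Dlx1 with an adjusted p of 1.41e-22 (edgeR), −2.81 ± 0.13 for Dlx2 with an adjusted p of 4.05e-22 (edgeR), and −1.61 ± 0.12 for Dlx6os1 with an adjusted p of 1.42e-15 (edgeR).

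For Dlx5 and Dlx6 the fold changes between striatal cells and interneurons were smaller. Whether they differ from those of the other genes was not tested. Dlx5 was at 78.4 and 88.3 CPM in striatal cells and at 103 and 109 CPM in interneurons, a log2 fold change of −0.34 ± 0.12 with an adjusted p of 0.0336 (edgeR). This call was lost with DESeq2 (adjusted p = 0.0592) and without the library block (adjusted p = 0.0554, edgeR). Direct-pathway and indirect-pathway cells lay below MGE and CGE cells in both libraries, but untyped striatal cells did not. The untyped cells had 95.1 and 136.6 CPM of Dlx5, against 95.9 and 94.6 CPM in MGE cells. Dlx6 was at 67.5 and 67.7 CPM against 73.6 and 45.5 CPM, and its log2 fold change of 0.23 (95% interval −0.05 to 0.50) did not pass. So 4 of 5 genes were called lower in striatal cells, where 9.19% of all genes tested were called lower and 7.74% higher. Dlx1as was at 10.3 and 9.34 CPM in striatal cells against 360 and 333 CPM, a log2 fold change of −5.15 ± 0.17 with an adjusted p of 9.25e-28 (edgeR).

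Of the listed genes, 2 were called higher and 13 lower in striatal cells. Six3 was at 64.2 CPM against 5.24 CPM. Zeb2 was at 66.6 CPM against 1554 CPM and Maf at 8.99 against 244 CPM. Cxcr4 and Npas1 were called lower too, and in at least 1 library and striatal class each had no UMI. Their highest striatal class means were 6.98 and 5.55 CPM, against interneuron means of 23.0 and 61.0 CPM.

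Within the striatal classes, Dlx1 and Dlx2 differed between the direct-pathway and indirect-pathway types. The former express Drd1 and project directly to the output nuclei of the basal ganglia, and the latter express Drd2. Dlx1 was at 32.6 and 31.0 CPM in direct-pathway and at 93.9 and 87.1 CPM in indirect-pathway cells. Dlx2 was at 14.4 and 15.8 CPM against 63.7 and 54.0 CPM. The direct-pathway values of both genes lay below all indirect-pathway values, and those of Dlx2 lay below the values of the pooled erythroid-like cells. The log2 fold change of direct against indirect was −1.50 ± 0.26 for Dlx1 with an adjusted p of 3.05e-05 (edgeR), and −1.93 ± 0.26 for Dlx2 with an adjusted p of 2.49e-07 (edgeR). These 2 of 5 genes were called lower in direct-pathway cells, where 2.23% of all genes tested were called lower and 2.33% higher, and DESeq2 called both.

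Dlx5, Dlx6 and Dlx6os1 did not pass between the striatal types. Dlx5 was at 78.0 and 73.9 CPM in direct-pathway and at 64.8 and 68.1 CPM in indirect-pathway cells, and Dlx6 at 74.3 and 71.7 CPM against 60.3 and 61.3 CPM. Both genes were a little higher in direct-pathway cells in each library, with log2 fold changes of 0.18 (95% interval −0.20 to 0.55) and 0.24 (−0.16 to 0.64). Dlx6os1 was at 360 and 339 CPM against 514 and 396 CPM, a log2 fold change of −0.36 (−0.75 to 0.02) with an adjusted p of 0.517 (edgeR). With only the 2 striatal types in the fit, Dlx6os1 was called (log2 fold change −0.38, adjusted p = 0.00372, edgeR).

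The listed genes split in both directions between the striatal types, with 4 higher and 4 lower in direct-pathway cells. Sp9, which is required for indirect-pathway neurons, was at 13.2 CPM in direct-pathway and 374 CPM in indirect-pathway cells. Six3 was at 34.6 against 491 CPM. Zeb2 was at 130 against 40.9 CPM and Pak3 at 322 against 172 CPM. Gad1 was at 116 against 284 CPM.

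The balance between the gene pairs was summarised as UMIs of Dlx1 and Dlx2 per UMI of Dlx5 and Dlx6, to be compared between classes. It was 4.73 and 5.37 in cycling cells, 3.56 and 3.63 in CGE cells, 3.14 and 2.83 in MGE cells and 2.12 and 2.62 in LGE-type cells. It was 1.26 and 1.09 in indirect-pathway cells, 0.308 and 0.322 in direct-pathway cells and 0.435 and 0.252 in untyped striatal cells. The interneuron and progenitor classes, each pooled over its clusters, all lay above the striatal classes in both libraries. Within the LGE-type class, the cluster of 172 cells led by Lrp1b and Kcnd2 had 0.963 and 2.06. In replicate 1 it thus lay below indirect-pathway cells, while the other LGE-type cluster had 2.41 and 2.78. UMIs of Dlx6os1 per UMI of Dlx5 were 21.3 and 17.6 in CGE cells, 11.8 and 10.4 in MGE cells, 11.8 and 11.3 in cycling cells, 7.93 and 5.81 in indirect-pathway cells and 4.61 and 4.58 in direct-pathway cells.

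**Figure D3:**
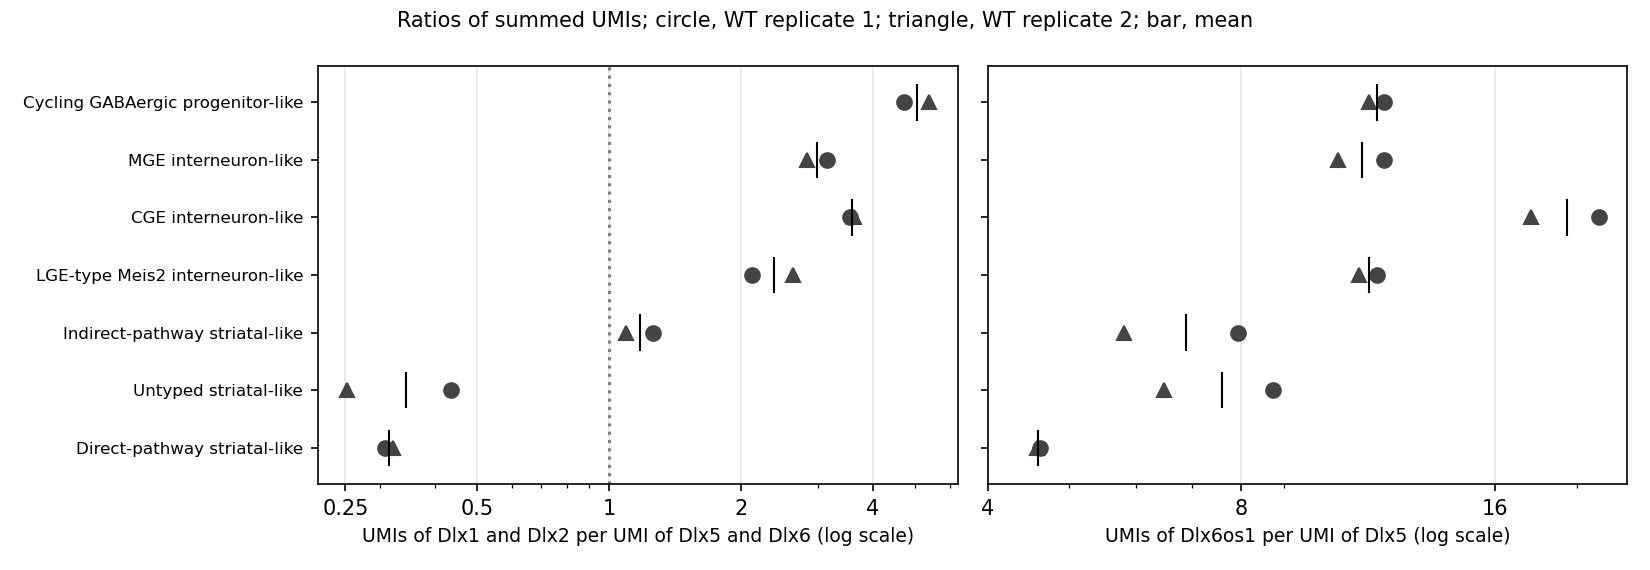
Ratios of summed UMIs per class (log axes), UMIs of Dlx1 and Dlx2 per UMI of Dlx5 and Dlx6 on the left and of Dlx6os1 per UMI of Dlx5 on the right, for the 2 WT libraries (circle and triangle) with their mean as a bar. The left ratio runs from 4.73 and 5.37 in cycling cells to 0.308 and 0.322 in direct-pathway cells.

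Levels also varied among clusters of 1 class, given here without a test because clusters were singled out after their values were seen. Of the MGE clusters, one of 737 cells led by Nxph1, Cntnap5c and Sox6 had 1465 and 1406 CPM of Dlx6os1 and 259 and 200.1 CPM of Dlx2. The other, of 840 cells led by Nxph1 and Maf, had 684 and 620.1 CPM of Dlx6os1 and 104 and 109.7 CPM of Dlx2. Dlx1 overlapped between them, at 301 and 256 CPM against 318 and 209 CPM. Of the LGE-type clusters, one led by Unc5c and Etv1 had 383 and 404 CPM of Dlx1 and one led by Lrp1b and Kcnd2 had 74.7 and 157 CPM. Of the direct-pathway clusters, one led by Ebf1 and Pou3f1 had 58.2 and 43.2 CPM of Dlx1 and 589 and 506 CPM of Dlx6os1, and one led by Ebf1 and Cntn5 had 12.2 and 22.8 CPM and 178 and 225 CPM.

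The highest Dlx6os1 level of any cluster was in 322 GABAergic cells that reached no name. Among their leading genes were Ccnd2, a D-type cyclin, Aldh1a3, an enzyme of retinoic acid synthesis, and Slc18a2, a vesicular monoamine transporter. They had 2803 and 2696 CPM of Dlx6os1, 520 and 448 CPM of Dlx1, 329 and 278 CPM of Dlx2, 166 and 148 CPM of Dlx5 and 85.8 and 82.8 CPM of Dlx6. Another unnamed GABAergic cluster of 363 cells, led by Zic4, Snhg11 and Zic1, had 635 and 619 CPM of Dlx6os1 and 230 and 223 CPM of Dlx1. A small cluster of 50 cells led by Reln and Ndnf was grouped with the GABAergic cells, although only 6% had a UMI of Gad1 or Gad2. Reln, Ndnf, Ebf3 and Trp73 were among its leading genes and are on the marker list of Cajal-Retzius neurons. GABAergic clusters were not scored against that list, and this cluster got no name. The cluster had 0 UMIs of Dlx1, Dlx2, Dlx5 and Dlx6 in both libraries. This allows levels of up to 18.3 and 10.4 CPM (3 counts per library, counting error only).

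**Figure D4:**
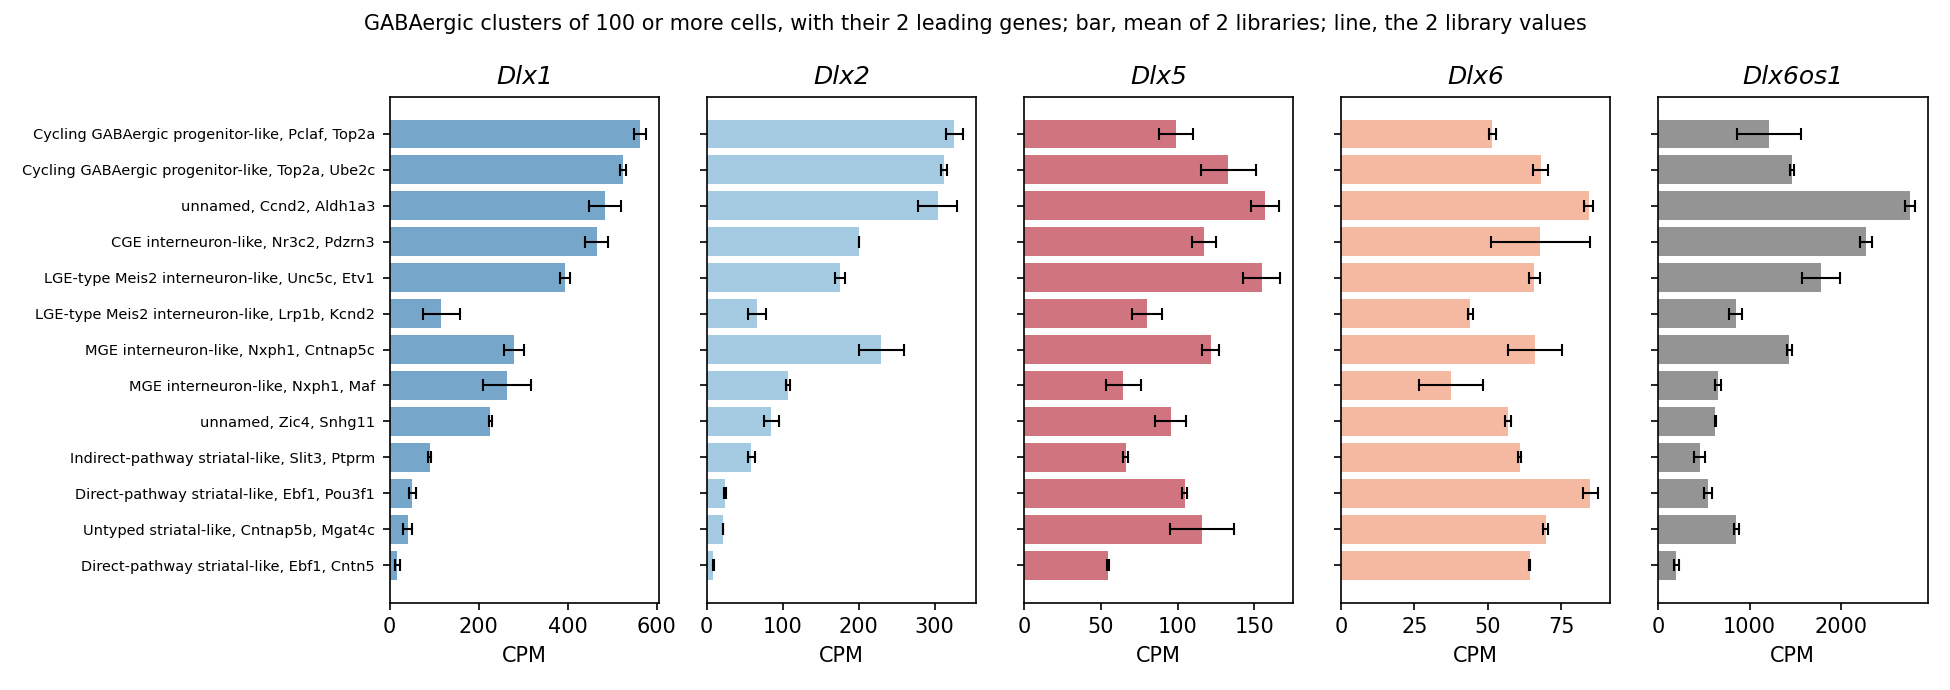
Level of each gene in CPM (linear axes from 0) in the 13 GABAergic clusters of at least 100 cells, named by class and 2 leading genes. Bars are the mean of the 2 WT libraries and lines join the 2 library values, and the Ccnd2 and Aldh1a3 cluster has the highest Dlx6os1.

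Detection of the genes in the same cell was compared after thinning to 1500 UMIs, as a description. In cycling cells, a UMI of Dlx6os1 was found in 83.7% and 91.8% of the 43 and 73 cells with a Dlx5 UMI, and in 61.0% and 53.8% of cells without one. For Dlx1, the shares with Dlx6os1 were 76.2% and 70.3% in cells with Dlx1 and 52.7% and 48.3% in cells without it. In CGE cells, where most cells had Dlx6os1, it was found in 92.8% and 92.3% of cells with a Dlx1 UMI and in 91.1% and 90.9% of cells without one. In cycling cells Dlx6 was found in 20.9% and 16.4% of cells with a Dlx5 UMI and in 4.33% and 6.31% of cells without one. In CGE cells Dlx6 was found in 6.25% and 6.56% of only 32 and 61 cells with Dlx5, and in 13.3% and 7.75% of cells without it, nearly level in replicate 2. In indirect-pathway cells Dlx6os1 was found in 40.9% and 37.5% of cells with Dlx5 and in 49.0% and 40.3% of cells without it. In direct-pathway cells the libraries differed, with 27.8% against 35.8% in replicate 1 and 54.8% against 28.7% in replicate 2. Cells are not replicates, so no test was made of these shares.

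Over 16 named classes, which share 2 libraries and include non-neural cells, Pearson's r of mean log2(CPM + 5) was 0.99 between Dlx1 and Dlx2 and 0.98 between Dlx5 and Dlx6. It was 0.98 between Dlx5 and Dlx6os1 and 0.83 between Dlx2 and Dlx6. Among 7495 genes with at least 50 CPM in a class and outside the Dlx family, those most like Dlx1 were Gm38505 (0.93), Sox2ot (0.92), Sp9 (0.91), Erbb4 (0.89) and Nrxn3 (0.88). Those most like Dlx2 were Sp9 (0.92), Gm38505 (0.91), Sox2ot (0.91), Arl4d (0.89) and Erbb4 (0.88). Those most like Dlx5 were Slc32a1 (0.96), Gad2 (0.96), Gm14204 (0.96), Gad1 (0.95) and Gm38505 (0.95), and the same 5 genes came with Dlx6 (0.93 to 0.97) and Dlx6os1 (0.95 to 0.98). Slc32a1 encodes the vesicular GABA transporter, and Gad1 and Gad2 were the genes by which GABAergic clusters were chosen.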

How the data were processed

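Single-cell RNA-seq (10x 3′ v3.1, poly-A RNA, papain dissociation) of 2 WT libraries was used. The authors deposited raw UMI counts per gene and barcode (Cell Ranger 7.0.0 and mm10 in the submitters' notes, 7.1.0 in the file headers). Use of strand and introns was not given in the sources used here. Cells were kept by the thresholds stated in the report. Doublets were scored against simulated doublets and removed at 0.8% per 1000 barcodes. The 2000 most variable genes, without Dlx and 20 listed genes, gave 30 principal components and Leiden clusters (leidenalg 0.10.2, resolution 1), and GABAergic cells were clustered again.

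A cluster was named from marker lists: at least 3 markers in 10% of cells, a score of at least 1, no other list leading its 10 top genes, and a score of at least 2 where no own marker was among them. These thresholds were set after clusters were seen. The members and lists were chosen with earlier results of these data known.

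Counts were summed per class and library (16 classes with 20 or more cells per library, 32 sums). A quasi-likelihood model (edgeR 4.0.16, glmQLFit, TMM factors, in R 4.3.3) with class and library as a block was fitted to the 15634 genes that reached 10 counts in 2 or more sums. A gene was called under a Benjamini-Hochberg adjusted p of 0.05 over all genes. The block stands for the library that classes share. The SE is the log2 fold change over the root of F. The code was tested on simulated data. Alternatives were DESeq2 1.42.0, no filter, no doublet removal, listed genes in clustering, resolution 0.6, no block, fewer classes and each library alone. Named genes were the 5 members, Dlx features, the 8 listed genes called with the largest fold, at least 10 CPM in 1 class and 1 direction in both libraries (5 CPM added), and the 5 most alike genes. Some of the listed genes are not reported here by name. Since classes come from clustering the same cells, genes that go with the clustered genes tend to differ between them.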

Additional observations from a re-analysis of the deposited data

How the results depend on the processing

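Of 210 member and setting pairs (5 genes, 6 comparisons, 7 settings), 204 kept their direction and their side of the threshold, 5 lost a call and 1 gained one, and no direction turned. DESeq2 called 0 of 5 members between MGE and CGE interneuron-like cells, where edgeR called 2, and the cause was not tested. Of the 20 listed genes DESeq2 called 6 there and edgeR 8, and the share of all genes that DESeq2 called is not given here. DESeq2 also lost Dlx6os1 in cycling against postmitotic cells and Dlx5 in striatal cells. Without the replicate block, Dlx5 in striatal cells lost its call (adjusted p = 0.0554, edgeR), so that 3 of 5 members were called there, and the block changed no other member's call. With each library alone the ratio kept its direction for all 16 called pairs, and libraries differed by a median of 0.23 and at most 1.03 on the log2 scale. Counts of members called could not be had from 1 library, since no residual degrees of freedom remain. The share of the members' UMIs in GABAergic clusters was 96.4% (mean), 90.7% with doublets kept, 96.9% in thinned cells and 96.2% to 96.6% with 1 library. The spread over 2 libraries, which may be technical, limits every test. Low counts limit Dlx6.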
